A study of Mus musculus with 12 samples.

Results

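The chemokine axes CXCR3 and CXCR6 guide T cells into tumors, and their 6 genes were followed here through 4 treatments of a mouse breast tumor. The CXCR3 axis comprised the ligands Cxcl9, Cxcl10 and Cxcl11 with their receptor Cxcr3, and the CXCR6 axis comprised the ligand Cxcl16 with its receptor Cxcr6. They were chosen by gene symbol, as 6 of the 55401 genes in the expression table, and all 6 passed the filter on low values that left 15504 genes for testing. Mammary carcinoma cells (4T1) had been implanted orthotopically in Balb/c mice, the strain from which the line was derived, and bulk RNA was sequenced from 12 tumors, 1 library each. The fusion protein BF10 joins interleukin-10 to an antibody that blocks CSF1R, the receptor through which colony stimulating factor 1 keeps macrophages alive, and 3 tumors had received it. The same number had received the antibody on its own (aCSF1R), interleukin-10 fused to an antibody Fc part (IL-10-Fc), or control IgG. All groups shared the cell line, the host strain and the start of protein dosing at a tumor size of 100 mm3. The published methods give doses per body weight that were not the same for all proteins, meant to be equivalent by molecular weight. The labels give 6 doses and the series design gives a smaller number, so the number of doses is uncertain. Tumors carry the numbers of the sample titles, and because nothing states how the numbered tumors were housed or processed, p-values measure the spread between these libraries.

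CXCL9, CXCL10 and CXCL11 are secreted chemokines that macrophages, dendritic cells and tumor cells make in response to interferons, above all IFN-γ, and all of them bind CXCR3 on activated T cells and NK cells. CXCL16 is made as a membrane-bound chemokine, mainly by macrophages and dendritic cells, and is shed from the surface by the proteases ADAM10 and ADAM17. Its receptor CXCR6 marks effector and tissue-resident T cells and some innate lymphocytes. IFN-γ acts through its receptor and the kinases JAK1 and JAK2, and IRF1 and NF-κB act on many of the promoters it induces.

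The genes of the CXCR3 ligands lie side by side on the minus strand of chromosome 5 (GRCm38), within 44139 bases. Cxcl9 (ENSMUSG00000029417) spans chr5:92321347-92328079, Cxcl10 (ENSMUSG00000034855) spans chr5:92346638-92348889 and Cxcl11 (ENSMUSG00000060183) spans chr5:92359544-92365485. The annotation calls Cxcl11 a polymorphic pseudogene, since the reference strain carries a disrupted copy. The line and the hosts here were Balb/c, whose copy was not examined, so the annotation does not settle whether the gene is intact in these tumors. A transcript level of Cxcl11 does not show that protein was made. Cxcr3 (ENSMUSG00000050232) lies at chrX:101731535-101734269, Cxcl16 (ENSMUSG00000018920) at chr11:70453983-70459984, both on the minus strand, and Cxcr6 (ENSMUSG00000048521) at chr9:123806475-123811760 on the plus strand. The promoters of Cxcl9 and Cxcl10 are shown because Cxcl9 had the highest level of the axis and Cxcl10 was lower in all 3 control IgG libraries than in any library of BF10 or IL-10-Fc. Each sequence is the 250 bases before the RefSeq start in GRCm38.p6, read 5′ to 3′ along the gene, at chr5:92328080-92328329 for Cxcl9 and chr5:92348890-92349139 for Cxcl10. Capitals mark matches on either strand to the core of the interferon-stimulated response element (GAAA and GAAA with any 2 bases between) or to an NF-κB motif (GGG and CC with any 5 bases between).
Cxcl9: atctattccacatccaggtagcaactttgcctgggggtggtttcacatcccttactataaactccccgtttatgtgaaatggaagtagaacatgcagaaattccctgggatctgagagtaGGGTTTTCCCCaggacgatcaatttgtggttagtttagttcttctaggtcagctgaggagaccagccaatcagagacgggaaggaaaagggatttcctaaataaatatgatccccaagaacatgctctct
Cxcl10: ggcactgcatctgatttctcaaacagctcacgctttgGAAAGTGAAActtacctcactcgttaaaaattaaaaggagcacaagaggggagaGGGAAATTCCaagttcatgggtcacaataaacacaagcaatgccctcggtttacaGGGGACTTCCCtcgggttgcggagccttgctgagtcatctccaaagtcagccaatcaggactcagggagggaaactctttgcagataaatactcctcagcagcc
The response element core was found in the window of Cxcl10, at positions -213 to -204 from the start, and not in that of Cxcl9, Cxcr3 or Cxcr6. It occurred in 2.98% of 32851 promoter windows of the same length. The NF-κB motif matched in the windows of Cxcl9, Cxcl10 and Cxcr3, with overlapping matches in the first 2, and in 45.8% of all windows. The IFN-γ-activated site, searched as TTC and GAA with 3 bases between (7.02% of all windows) or 4 (5.85%), had no match in any of the 4 windows searched. Sites that differ from these strings were not searched for, so the windows were not shown to lack an IFN-γ response site. Promoters of Cxcl11 and Cxcl16 were not analysed here.

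Levels are given as TPM, for which the deposited FPKM of each library were rescaled to a common total. The libraries held an estimated 27000000 to 31900000 reads, and the authors' mean normalized counts, over the libraries of each of their 4 comparisons, were 5769 to 8457 for Cxcl9 and 3373 to 5202 for Cxcl16 but 217 to 302 for Cxcr3 and 180 to 225 for Cxcr6. Both receptors were therefore measured with fewer reads than their ligands. The libraries fell into 2 sets that did not follow the treatments, 5 with FPKM sums of 782919 to 921581 (BF10 replicate 6, aCSF1R replicate 8, control IgG replicates 4 and 7, IL-10-Fc replicate 7) and 7 with sums of 609695 to 648413, called higher-sum and lower-sum libraries. They differed in 59.2% of the tested genes, and mitochondrial genes took 5.9 to 9.26% of the higher-sum and 3.14 to 3.96% of the lower-sum libraries. Because control IgG had 2 higher-sum libraries and every other group 1, each comparison is also given with a term for the library set where that changes it. Epithelial markers, which define the labeled tumor, were present in all libraries, with a summed level of 668 to 2316 TPM over 5 genes, beside 17.7 to 78.5 TPM for 11 T cell markers.

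By its group means Cxcl9 was the most abundant CXCR3 ligand in all 4 groups, and Cxcr3 and Cxcr6 were the least abundant members, at a few TPM. The mean level of Cxcl9 was 153 ± 35.7 TPM in IL-10-Fc, 150 ± 33.8 in BF10, 87.5 ± 21.7 in aCSF1R and 85.2 ± 40.4 in control IgG (SD, n = 3 for each group here and below). The means of Cxcl9, Cxcl10 and Cxcl11 stood higher in both groups that received interleukin-10 than in control IgG, by amounts that did not pass the test, and Cxcl16 had its lowest values in the aCSF1R group. No difference of either receptor between treatments passed the test. The plot of levels shows every library.

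**Figure D1:**
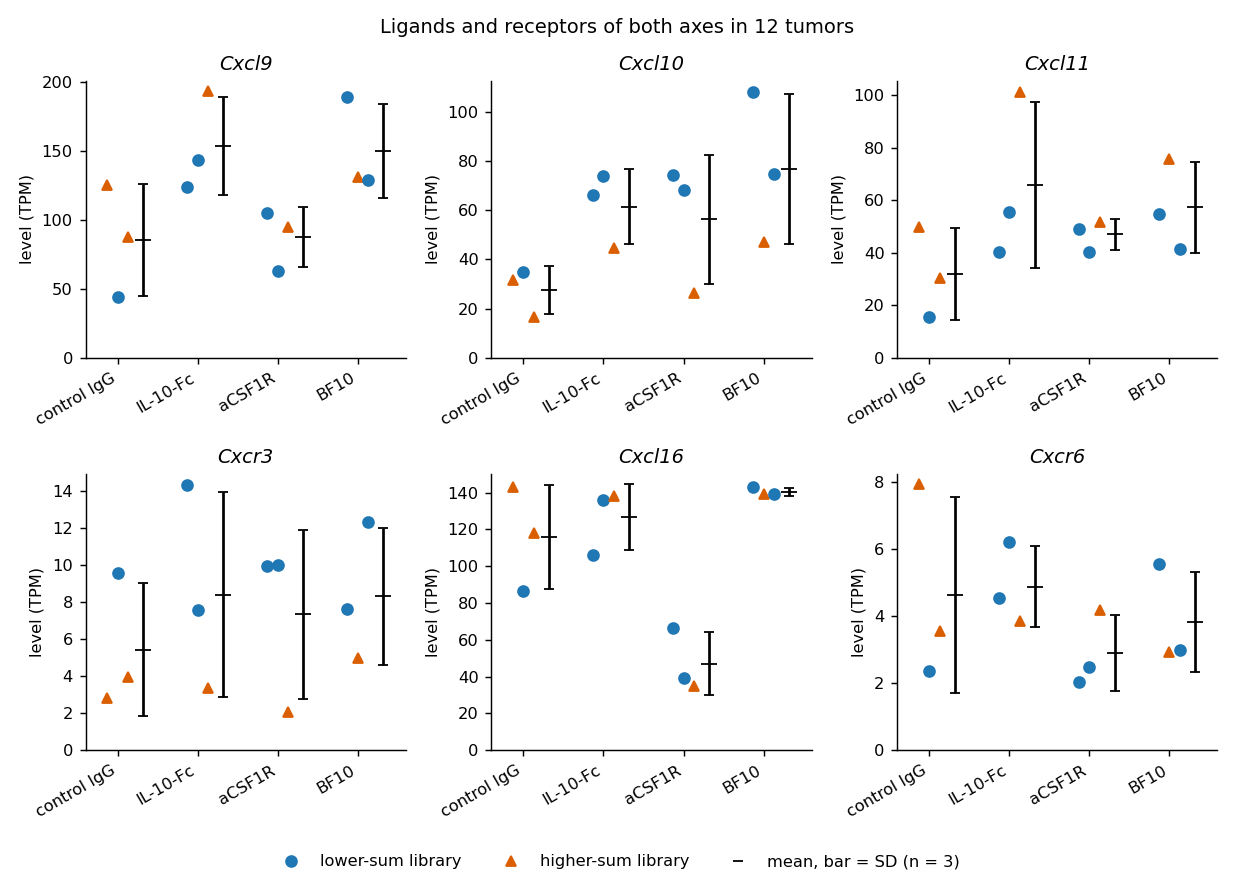
Level (TPM, y axis) of each of the 6 genes in the 12 libraries, by treatment group; circles are lower-sum and triangles higher-sum libraries, and the bar gives the mean and SD (n = 3). Cxcl16 lay at 35.2 to 66.6 TPM in aCSF1R and at 86.4 TPM or more in the other groups, and Cxcr3 was lower in every higher-sum library than in any lower-sum library.

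Among the CXCR3 ligands, Cxcl9 lay at 189, 131 and 129 TPM in BF10 replicates 3, 6 and 7, and at 124, 143 and 193 TPM in IL-10-Fc replicates 2, 4 and 7. In aCSF1R replicates 4, 6 and 8 it lay at 105, 63.1 and 94.8 TPM, and in control IgG replicates 4, 5 and 7 at 125, 43.7 and 87.3 TPM. In TPM all 3 BF10 libraries exceeded all control IgG and aCSF1R libraries, while 1 IL-10-Fc library fell just below the highest control. In the deposited FPKM, BF10 replicates 6 and 7 (108.38 and 83.34) lay below control IgG replicate 4 (111.01). Replicate 7 of BF10 was also below aCSF1R replicate 8 (87.36). Cxcl9 was 1.87-fold higher in BF10 than in control IgG (log2 difference 0.91, SE 0.37, 95% interval 0.09 to 1.72) and 1.92-fold higher in IL-10-Fc (0.94, SE 0.37, interval 0.12 to 1.76). The adjusted p over all genes (limma) was 0.788 and 0.738, so neither difference passed the test. The aCSF1R group differed from control IgG by 0.13 (interval -0.69 to 0.95; adjusted p 0.909).

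Cxcl10, whose promoter window held the response element core, lay at 108, 47.2 and 74.8 TPM in BF10 replicates 3, 6 and 7. In IL-10-Fc replicates 2, 4 and 7 it lay at 66, 73.8 and 44.6 TPM. It lay at 74.5, 68.4 and 26.3 TPM in aCSF1R replicates 4, 6 and 8 and at 31.5, 35 and 16.5 TPM in control IgG replicates 4, 5 and 7. The 3 control libraries were below every BF10 and IL-10-Fc library, and 1 aCSF1R library, a higher-sum one, fell among the controls. The differences from control IgG, the largest of the members before the library set was added as a term, were 2.69-fold in BF10 (log2 1.43, SE 0.46, adjusted p 0.788) and 2.24-fold in IL-10-Fc (1.16, SE 0.46, adjusted p 0.738). In aCSF1R the difference was 0.94 (SE 0.46, adjusted p 0.893). With a term for the library set the values were 1.13, 0.87 and 0.64, and none passed the test (adjusted p 0.993, 0.942 and 0.507).

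Cxcl11 lay at 54.6, 75.7 and 41.5 TPM in BF10 replicates 3, 6 and 7, at 40.3, 55.5 and 101 TPM in IL-10-Fc replicates 2, 4 and 7, at 49.1, 40.3 and 51.5 TPM in aCSF1R replicates 4, 6 and 8 and at 49.9, 15.3 and 30.4 TPM in control IgG replicates 4, 5 and 7. Every treated group overlapped the control. The difference from control IgG on the log2 scale was 1.06 for IL-10-Fc, 0.93 for BF10 and 0.69 for aCSF1R (SE 0.44 for each), with adjusted p of 0.738, 0.788 and 0.893. With a term for the library set they were 1.33, 1.20 and 0.96, above those of Cxcl10 in all 3 groups, and none passed the test (adjusted p 0.653, 0.993 and 0.152).

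Joining both interleukin-10 groups (6 libraries) and setting them against aCSF1R and control IgG (6 libraries) asks whether interleukin-10 itself went with higher ligand levels. Cxcl9 was 1.81-fold higher (log2 0.86, SE 0.26, interval 0.28 to 1.44), with 151 ± 31.1 TPM against 86.3 ± 29 (SD, n = 6). In TPM 5 of the 6 libraries with interleukin-10 exceeded all 6 without, an order that the deposited FPKM did not keep. The two-sided exact permutation test of this single gene gave p = 0.00433, whereas the adjusted p over all genes in limma was 0.599 and, with the library set as a term, 0.0765. Cxcl10 differed by 0.82 (exact permutation p = 0.0628) and Cxcl11 by 0.66 (exact permutation p = 0.0801), with limma adjusted p of 0.82 for both and of 0.125 and 0.0825 with the library set as a term. Within the lower-sum libraries (4 against 3) the difference was 1.11 for Cxcl9, 0.48 for Cxcl10 and 0.58 for Cxcl11, and within the higher-sum libraries (2 against 3) it was 0.65, 0.91 and 1.02. All 3 ligands were thus higher with interleukin-10 in both sets, by amounts that did not pass the threshold across all genes.

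**Figure D2:**
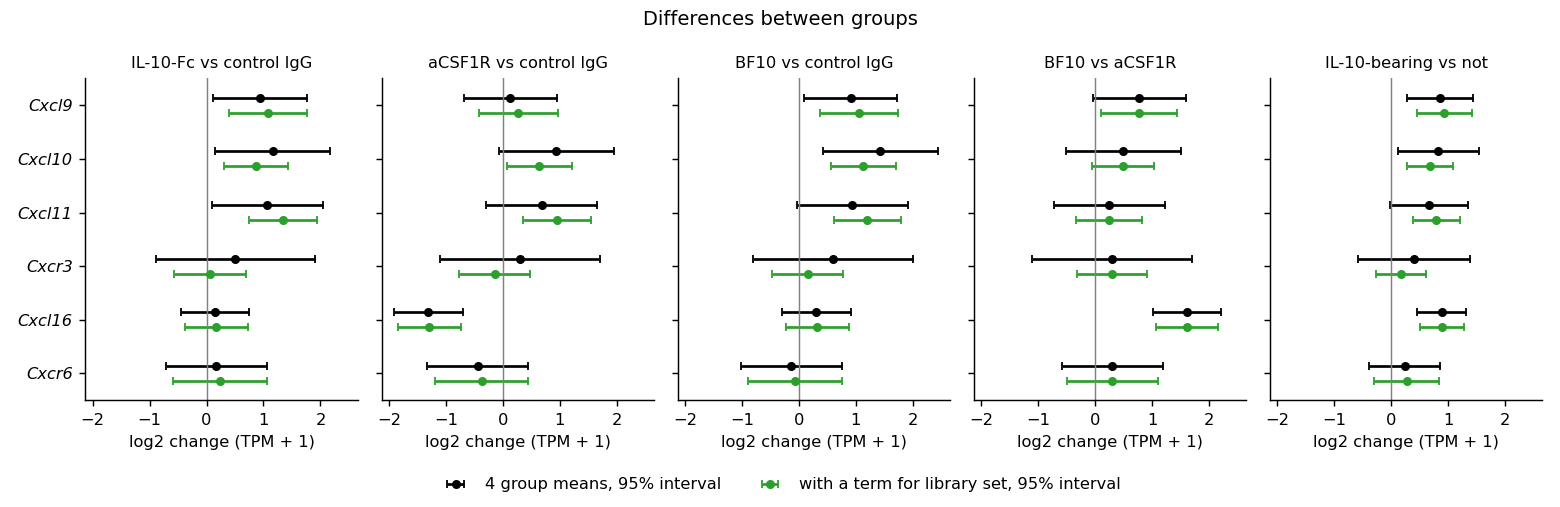
Log2 difference in TPM + 1 (x axis) of each gene in 5 comparisons, with 95% intervals; black, 1 mean per group, green, with a term for the library set added. Intervals of Cxcl16 lie below 0 for aCSF1R against control IgG (-1.91 to -0.70) and above 0 for BF10 against aCSF1R (1.01 to 2.21), and the intervals of Cxcr6 span 0 in all 5.

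Between BF10 and IL-10-Fc no ligand of CXCR3 differed beyond the spread of the libraries. The differences were -0.03 for Cxcl9 (interval -0.85 to 0.78), 0.26 for Cxcl10 (-0.75 to 1.27) and -0.13 for Cxcl11 (-1.11 to 0.84), each with an adjusted p of 1. These intervals leave room for differences near the size seen against control IgG, so the groups were not shown to be alike. BF10 exceeded aCSF1R by 0.78 for Cxcl9 (interval -0.04 to 1.59; adjusted p 1), by 0.49 for Cxcl10 and by 0.25 for Cxcl11.

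Cxcl16, the ligand of CXCR6, was the member that separated the antibody from the other treatments. It lay at 66.6, 39.3 and 35.2 TPM in aCSF1R replicates 4, 6 and 8, against 143, 139 and 139 TPM in BF10 replicates 3, 6 and 7. In control IgG replicates 4, 5 and 7 it lay at 143, 86.4 and 118 TPM and in IL-10-Fc replicates 2, 4 and 7 at 106, 136 and 138 TPM. In TPM all aCSF1R libraries were below all others, and the BF10 libraries lay within a narrow band (140 ± 2.52 TPM) at the top of the control range. The deposited FPKM kept aCSF1R lowest but spread BF10 replicates 3, 6 and 7 to 91.60, 115.33 and 89.37. Median-of-ratios scaling divides aCSF1R replicate 8 by 0.529 and control IgG replicate 5 by 1.324, after which the former no longer lies below the latter. Cxcl16 was 3.06-fold higher in BF10 than in aCSF1R (log2 1.61, SE 0.27, interval 1.01 to 2.21, adjusted p 0.0205), and this was the 1 call among the 6 members in the 7 comparisons. The adjusted p was 0.00323 with the library set as a term, and the difference was 1.44 within the lower-sum (2 against 2) and 1.95 between single higher-sum libraries. Among other settings, the call was lost under median-of-ratios scaling (1.47, adjusted p 0.353) and without BF10 replicate 3 (adjusted p 0.107), 6 (0.0656) or 7 (0.0928) or aCSF1R replicate 6 (0.116) or 8 (0.0682), while the difference stayed between 1.44 and 1.89 when any 1 library was left out.

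Against control IgG, Cxcl16 was at 0.404 of the level in aCSF1R (log2 -1.31, SE 0.27, interval -1.91 to -0.70). The adjusted p was 0.0818, just outside the threshold, and it was 0.0221 with the library set as a term and 0.0293 without aCSF1R replicate 4. BF10 differed from control IgG by 0.31 (interval -0.30 to 0.91; adjusted p 0.788) and IL-10-Fc by 0.15 (interval -0.45 to 0.75; adjusted p 0.773). Under median-of-ratios scaling these 2 small differences were -0.070 and -0.288, so no direction can be given for them. Cxcl16 was 0.88 higher with interleukin-10 than without (SE 0.19, adjusted p 0.174; exact permutation p = 0.026), a contrast that includes the low aCSF1R group, and the adjusted p was 0.0321 with the library set as a term. The non-additive contrast, which takes the effect of BF10 over control IgG less the sum of the effects of its 2 components, was 1.46 for Cxcl16 (SE 0.39, unadjusted p 0.00316, adjusted p 0.413).

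Macrophage markers were low in the aCSF1R group, as Cxcl16 was. Among libraries of the other groups their sum did not order Cxcl16. Control IgG replicate 5 had 1738 TPM of markers and 86.4 TPM of Cxcl16, and IL-10-Fc replicate 7 had 1382 and 138 TPM. The sum of 10 markers, among them the complement genes C1qa, C1qb and C1qc and the receptor genes Csf1r and Mrc1, was 76.2 to 262 TPM in aCSF1R, against 1662 to 2186 in control IgG, 1382 to 1611 in IL-10-Fc and 1697 to 1719 in BF10. None of the markers was at 0 throughout. All 10 were lower in aCSF1R than in control IgG, 6 of them past the test, with a median log2 difference of -2.58 against 0.24 over all tested genes. In BF10 all 10 were higher than in aCSF1R, again 6 past the test (median 2.82, against 0.06 over all genes). Cxcl16 was low in the same 3 libraries as the markers, by a smaller log2 difference, and the part of macrophage number in its level was not tested, since fewer macrophages and less Cxcl16 RNA per macrophage cannot be told apart in bulk RNA. Csf1r itself was 2.03 log2 units lower in the higher-sum than in the lower-sum libraries, while Cxcl16 differed by 0.06 between the sets. Of the other ligands, Cxcl10 and Cxcl11 had higher means in aCSF1R than in control IgG (56.4 ± 26.2 against 27.6 ± 9.8 TPM and 47 ± 5.91 against 31.9 ± 17.4 TPM).

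**Figure D3:**
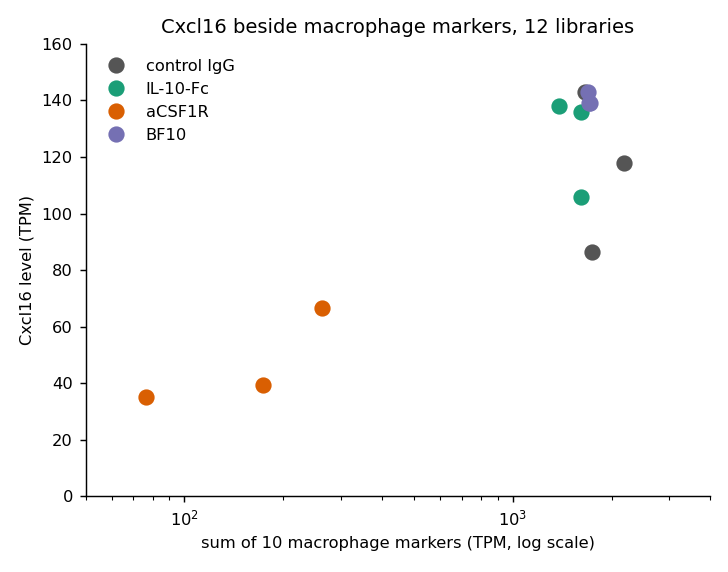
Level of Cxcl16 (TPM, y axis) against the sum of 10 macrophage markers (TPM, log scale, x axis) in the 12 libraries, colored by group. The 3 aCSF1R libraries sit apart at the lower left, and the other 9 lie between 1382 and 2186 TPM of markers and between 86.4 and 143 TPM of Cxcl16.

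Cxcr3, the receptor of the interferon-induced ligands, was detected at 2.09 to 14.3 TPM. It lay at 7.63, 4.97 and 12.3 TPM in BF10 replicates 3, 6 and 7, at 14.3, 7.56 and 3.35 TPM in IL-10-Fc replicates 2, 4 and 7, at 9.93, 10 and 2.09 TPM in aCSF1R replicates 4, 6 and 8 and at 2.8, 9.54 and 3.97 TPM in control IgG replicates 4, 5 and 7. The lowest 5 values were those of the 5 higher-sum libraries, so the level went with the library set. The sets differed by -1.34 on the log2 scale (higher-sum minus lower-sum, limma adjusted p 0.000174), with 3.44 ± 1.1 TPM (SD, n = 5) against 10.2 ± 2.42 (SD, n = 7). Between treatments, differences from control IgG were 0.60 in BF10 (interval -0.80 to 2.00), 0.50 in IL-10-Fc (-0.90 to 1.90) and 0.30 in aCSF1R (-1.10 to 1.70), and with the set as a term they were 0.15, 0.06 and -0.14, none past the test (adjusted p 0.788, 0.738 and 0.893 without the term).

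Among the other members, Cxcl10 was also lower in the higher-sum libraries (-0.89, adjusted p 0.00135) whereas Cxcl11 was higher in them (0.81, adjusted p 0.00319). The sets did not differ past the test in Cxcl9 (0.43), Cxcl16 (0.06) or Cxcr6 (0.21). Of all 15504 tested genes, 8369 were called lower in the higher-sum libraries and 811 higher. A lower level there was therefore not particular to Cxcr3, to Cxcl10 or to T cell genes. Of the 11 T cell markers, 10 were lower in the higher-sum libraries, as Cxcr3 was, and 8 of them passed the test. Among these was Cd3e (-1.51, adjusted p 0.000119), which encodes a chain of the T cell receptor complex. Its partner Cd3d (0.14, adjusted p 0.741) was the exception, and the part of T cell number in the set difference of Cxcr3 was not tested.

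Cxcr6 had the lowest mean level of the 6 members in every group. It lay at 5.55, 2.93 and 3 TPM in BF10 replicates 3, 6 and 7, at 4.55, 6.22 and 3.86 TPM in IL-10-Fc replicates 2, 4 and 7, at 2.03, 2.49 and 4.18 TPM in aCSF1R replicates 4, 6 and 8 and at 7.94, 2.37 and 3.57 TPM in control IgG replicates 4, 5 and 7. The groups overlapped throughout, and the highest and the second lowest value of the 12 both came from control tumors. Differences from control IgG were -0.14 in BF10 (interval -1.03 to 0.75), 0.17 in IL-10-Fc (-0.72 to 1.05) and -0.44 in aCSF1R (-1.33 to 0.44), with adjusted p of 0.862, 0.822 and 0.893. Each interval includes a difference of 2-fold in 1 direction, so a change of that size in that direction was not excluded for Cxcr6.

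Counts of called members were read against those of all tested genes. In BF10 against control IgG, where 0% of tested genes were called and 234 of 15504 had an unadjusted p below 0.05, 0 of the 6 members were called and 2 were below 0.05 unadjusted. For IL-10-Fc against control IgG the background was 0.00645%, with 0 members called and 3 below 0.05 unadjusted (224 genes). In aCSF1R against control IgG 0.568% of genes were called, with 0 members called and 1 below 0.05 unadjusted (537 genes). For BF10 against IL-10-Fc the background was 0% with 0 members called (42 genes and 0 members below 0.05 unadjusted), and for BF10 against aCSF1R it was 0.735% with 1 member called, Cxcl16 (661 genes and 1 member below 0.05 unadjusted). With against without interleukin-10, 0.142% of genes and 0 members were called (687 genes and 3 members, Cxcl9, Cxcl10 and Cxcl16, below 0.05 unadjusted), and for the non-additive contrast 0.29% of genes and 0 members (377 genes and 1 member).

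Against control IgG the median log2 difference of the 6 members was 0.75 for BF10 and 0.72 for IL-10-Fc, beside 0.32 and 0.35 over all tested genes, and it was 0.22 in aCSF1R beside 0.24. Under median-of-ratios scaling the medians of all genes were within 0.04 of 0 in the 7 comparisons. That scaling brings such medians close to 0 by construction, so it cannot show where the shift of 0.24 to 0.35 comes from. With the library set as a term the medians of all genes were 0.07 (BF10), 0.10 (IL-10-Fc) and 0.01 (aCSF1R) against control IgG, so the shift was smaller under that fit. Libraries of BF10 and control IgG did not overlap in Cxcl9 and Cxcl10, which held for 3.53% of tested genes, and those of IL-10-Fc and control IgG did not overlap in Cxcl10 (6.53% of genes). For Cxcl16 the groups were apart in aCSF1R against control IgG (5.28% of genes) and in BF10 against IL-10-Fc (2.13%), and in BF10 against aCSF1R both Cxcl9 and Cxcl16 were (5.91%). These separations are of TPM values. In the deposited FPKM, Cxcl9 of BF10 overlapped with both control IgG and aCSF1R. Cxcl16 then overlapped between BF10 (89.37 to 115.33) and IL-10-Fc (67.77 to 108.25). No member had 6 libraries with interleukin-10 all above or all below the 6 without, as 0.264% of genes did.

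Ratios within a library show unequal change of 2 genes and depend little on how the library was scaled. Spp1 encodes osteopontin, which tumor-associated macrophages and tumor cells both make, and the balance of Cxcl9 to Spp1 is used to describe macrophage states. Cxcl9 minus Spp1 was -4.64 ± 0.87 with interleukin-10 and -6.43 ± 0.70 without (log2 of TPM + 1, SD, n = 6), a difference of 1.79 (two-sided exact permutation p = 0.00433, Benjamini-Hochberg 0.0216 over the 5 ratios tested). It was 1.66 within the lower-sum and 1.71 within the higher-sum libraries. Against control IgG (-6.66 ± 0.39, n = 3) the ratio was 2.07 higher in BF10 and 1.97 higher in IL-10-Fc, each with an exact permutation p of 0.1, the smallest that 3 against 3 tumors allow, and 0.47 higher in aCSF1R (exact permutation p = 0.6). The level of Spp1 itself was 8326 ± 2612 TPM in control IgG, 7496 ± 5591 in aCSF1R, 4179 ± 2552 in BF10 and 3919 ± 231 in IL-10-Fc, and was 0.93 lower with interleukin-10 on the log2 scale (SE 0.40, limma adjusted p 0.82). Both sides of the ratio thus contributed, Cxcl9 by 0.86 and Spp1 by 0.93. The macrophage markers summed to 76.2 to 262 TPM in aCSF1R and to 1662 to 2186 TPM in control IgG. In the same 2 groups the mean of Cxcl9 was 87.5 and 85.2 TPM and that of Spp1 7496 and 8326 TPM. The ratio in bulk RNA was therefore not shown to describe macrophages, and which cells made either RNA was not tested.

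**Figure D4:**
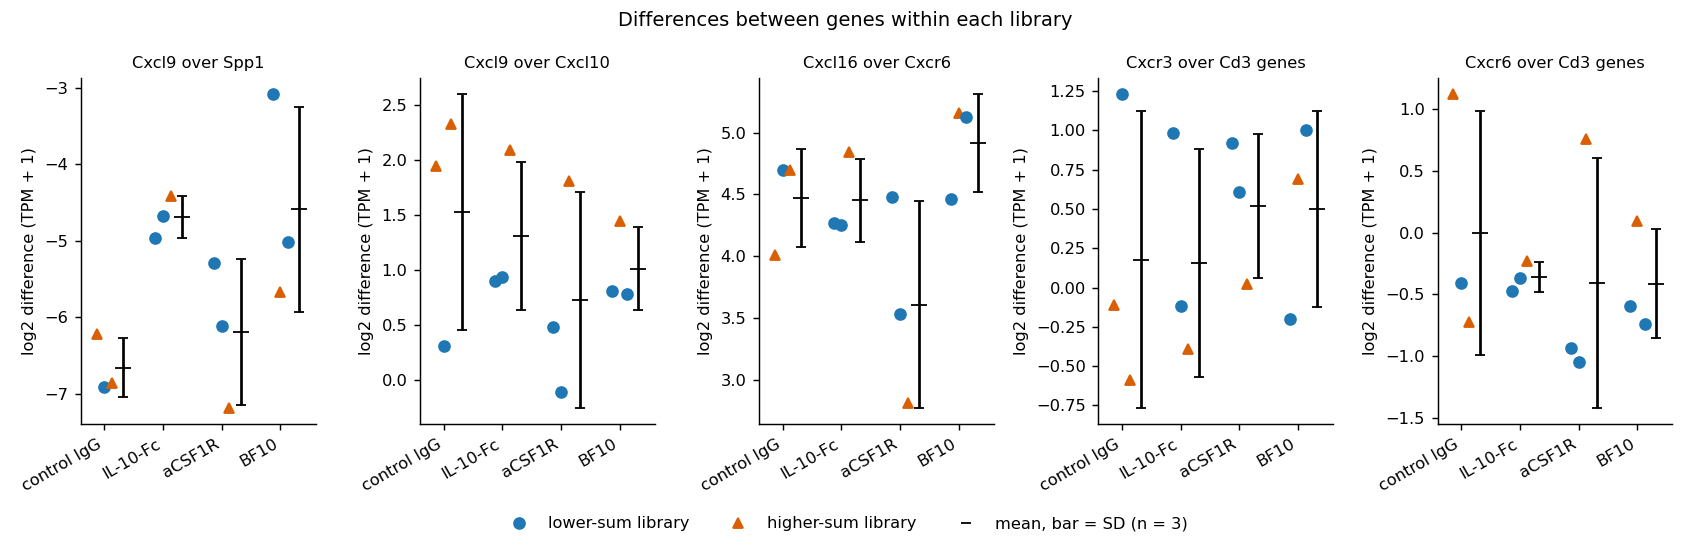
Difference in log2(TPM + 1) between 2 genes, or between a gene and the mean of Cd3d, Cd3e and Cd3g, within each library (y axis), by group; circles are lower-sum and triangles higher-sum libraries, bars give mean and SD (n = 3). Cxcl9 over Spp1 lay at -5.67 to -3.08 in BF10 and IL-10-Fc and at -7.19 to -5.29 in aCSF1R and control IgG.

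The remaining 4 ratios did not separate the tumors with interleukin-10 from those without. Cxcl9 minus Cxcl10 was 1.16 ± 0.52 against 1.13 ± 1.02 (exact permutation p = 0.937), and it was higher in each higher-sum library of a group than in the lower-sum libraries of that group. Cxcr3 minus the mean of the Cd3 genes, an estimate of the receptor per T cell transcript, was 0.33 ± 0.63 against 0.35 ± 0.69 (exact permutation p = 0.952), and Cxcr6 minus the same mean was -0.39 ± 0.29 against -0.20 ± 0.92 (exact permutation p = 0.639). Cxcl16 minus Cxcr6 was 4.68 ± 0.41 against 4.04 ± 0.76 (exact permutation p = 0.0974; SD and n = 6 in each case), with its lowest group mean, 3.61 ± 0.84 (n = 3), in aCSF1R. Of these, 3 differed in direction between the library sets, with differences in the lower-sum and the higher-sum libraries of 0.63 and -0.26 for Cxcl9 minus Cxcl10, -0.50 and 0.38 for Cxcr3 and 0.25 and -0.46 for Cxcr6 minus the Cd3 genes, and of 0.29 and 1.16 for Cxcl16 minus Cxcr6. Over these 4 ratios the Benjamini-Hochberg values were 0.244 to 0.952.

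Levels of member pairs were compared over the 7 lower-sum libraries (2 each of BF10, IL-10-Fc and aCSF1R and 1 of control IgG), because the library sets form separate clusters. The 3 highest values of Pearson's r among the 15 pairs were those of the CXCR3 ligands, at 0.93 for Cxcl10 with Cxcl11, 0.87 for Cxcl9 with Cxcl10 and 0.84 for Cxcl9 with Cxcl11 (exact permutation p = 0.0109, 0.00694 and 0.0129, each 0.0645 after Benjamini-Hochberg adjustment over the 15 pairs), and none passed the adjustment. Spearman's rho was 0.75, 0.75 and 0.79 (exact permutation p = 0.0663, 0.0663 and 0.048, each 0.199 adjusted). Without the 2 libraries farthest from the median of the first gene, r was 0.62, 0.82 and 0.51, so the values rest in part on those libraries. The ligand Cxcl16 and its receptor Cxcr6 had an r of 0.70 (exact permutation p = 0.0756, adjusted 0.223) and a rho of 0.71 (exact permutation p = 0.0881, adjusted 0.22), with r of 0.63 without the 2 farthest libraries. Cxcr3 had negative r values with all 3 of its ligands, -0.14 with Cxcl9, -0.22 with Cxcl10 and -0.20 with Cxcl11 (exact permutation p = 0.794, 0.674 and 0.647).

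The genes most alike to each member were those with the largest r over the 12 libraries, after the mean of each library set was taken off, among tested genes with a mean of at least 5 TPM. These r values are a description, chosen as the largest among many genes. For Cxcl9 they were Pim1, Ubd and Oxct1 (r = 0.91, 0.91 and 0.90), for Cxcl10 they included Septin5 and Cxcl11 (0.94 and 0.93) and for Cxcl11 Il24 and Serpina3f (both 0.95). For Cxcl16 they were Ctsc, which encodes the lysosomal protease cathepsin C, Fgl2 and Stx7 (0.98, 0.98 and 0.97). For the receptors they were Gm5831, Pgap2 and Rhou for Cxcr3 (0.92, 0.89 and 0.87) and Acer3, Uxt and Psma2 for Cxcr6 (0.87, 0.85 and 0.84).

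Upstream of the CXCR3 ligands, 11 of 14 genes of the IFN-γ pathway passed the filter, and those for the T cell factor Tbx21, the cytokine subunit Il12b and the receptor subunit Il12rb2 did not. None of the 11 was called in any of the 7 comparisons. In BF10 against control IgG 9 of 11 were higher, with a median of 0.69 (0.32 over all genes). In IL-10-Fc and aCSF1R also 9 of 11 were higher, with medians of 0.56 and 0.38 (0.35 and 0.24 over all genes). With the library set as a term the list medians were 0.29, 0.43 and 0.21, beside 0.07, 0.10 and 0.01 over all genes. Ifng itself was at 1.01 ± 0.383 TPM in control IgG, at 2.27 ± 0.777 with BF10, at 1.96 ± 0.519 with IL-10-Fc and at 1.58 ± 0.12 with aCSF1R (log2 difference from control IgG 0.69, 0.56 and 0.38, adjusted p 0.788, 0.738 and 0.893). Il18, a cytokine that induces IFN-γ, had the lowest difference of the list with interleukin-10 (-0.35, adjusted p 0.82).

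Of 12 other genes that IFN-γ induces, all tested, none was called. All 12 were higher than in control IgG in each interleukin-10 group (medians 0.74 in BF10 and 0.75 in IL-10-Fc) and 11 of 12 in aCSF1R (0.60). Over all tested genes the medians were 0.32, 0.35 and 0.24, so genes at large also leaned upward. With the library set as a term the list medians were 0.58, 0.53 and 0.54, beside 0.07, 0.10 and 0.01 over all genes. Cd274, which encodes PD-L1, differed most with interleukin-10 (0.77, SE 0.58, adjusted p 0.82) and Ido1, a tryptophan-degrading enzyme, least (-0.09, SE 0.31, adjusted p 0.9). With the library set as a term the guanylate-binding protein gene Gbp5 passed the test in IL-10-Fc (log2 1.07, adjusted p 0.0473) and aCSF1R (0.82, adjusted p 0.0109) against control IgG and with interleukin-10 (0.69, adjusted p 0.00639), but not in BF10 against control IgG (1.13, adjusted p 0.0594). The lists were read by their counts, and nothing is claimed of them beyond single genes.

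All 9 partners of the 2 axes passed the filter. The sheddases of CXCL16 showed no called difference, with Adam10 at 55.8 ± 32.7 TPM in control IgG and 60.4 ± 29.1 in aCSF1R and Adam17 at 16.8 ± 13.8 and 27.6 ± 18.8 TPM. Pf4, a platelet and macrophage chemokine that can bind CXCR3, fell in aCSF1R (25.7 ± 10.1 against 164 ± 43.3 TPM in control IgG; log2 -2.66, adjusted p 0.0105) and rose from aCSF1R to BF10 (179 ± 78.4 TPM; 2.71, adjusted p 0.00905). It also had the highest difference of the partners with interleukin-10 (1.35, adjusted p 0.143), and Il15, a cytokine that sustains CD8+ T cells, had the lowest (0.02, adjusted p 0.976). In the aCSF1R tumors, whose macrophage markers were low, both Pf4 and Cxcl16 had their lowest means, while Cxcl9, Cxcl10 and Cxcl11 were not below control IgG in their means.

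Of 21 genes of other T cell chemokine axes, 14 passed the filter. The fractalkine receptor gene Cx3cr1 had the highest difference of this list with interleukin-10 (1.52, adjusted p 0.82) and Cxcl13, the ligand of CXCR5, the lowest (-0.55, adjusted p 0.82).

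Markers of the cells that carry CXCR3 and CXCR6 were read beside the receptors. None of the 11 T cell markers was called in any comparison, all 11 were higher with interleukin-10 (median 0.43, or 0.34 with the library set as a term, against 0.22 and 0.09 over all genes), and their summed level was 41.7 to 70.1 TPM in IL-10-Fc, 24.1 to 78.5 in BF10, 17.7 to 53 in aCSF1R and 29.8 to 49.4 in control IgG. Of 5 NK cell markers 4 passed the filter, with none called, and they leaned the other way. With interleukin-10, 3 of the 4 were lower (median -0.15, or -0.14 with the library set as a term). Each treatment likewise had 3 of 4 below control IgG, by medians of -0.37 (IL-10-Fc), -0.42 (BF10) and -0.25 (aCSF1R). Control IgG libraries summed to 9.32 to 12.6 TPM, above every library of IL-10-Fc (5.07 to 6.69) and of BF10 (7.39 to 7.79). The aCSF1R libraries spread from 5.38 to 15.4 TPM. The dendritic cell markers Flt3 and Xcr1 did not pass the filter, and of the other 6 none was called, although with the library set as a term Itgax, which encodes an integrin chain that macrophages also carry, was called in aCSF1R against control IgG (-1.55, adjusted p 0.00195), BF10 against aCSF1R (2.19, adjusted p 0.000118), with interleukin-10 (1.47, adjusted p 0.00135) and in the non-additive contrast (1.44, adjusted p 0.0376). The first 3 are also comparisons in which Cxcl16 was called under that fit. The other tested dendritic cell markers, none of them called, differed less than Itgax in the first 2. In aCSF1R against control IgG the values were -0.02 (Zbtb46), 0.03 (Batf3), -0.02 (Fscn1), -0.36 (Clec9a) and -0.70 (Cd209a). In BF10 against aCSF1R they were 0.01, 0.09, 0.25, 0.13 and 0.38. The part of dendritic cells in Cxcl16 was not tested. Neutrophil markers summed to 16420 TPM in BF10 replicate 3 and to 426 to 3338 TPM in the other 11 libraries, with 1693 and 715 in BF10 replicates 6 and 7 and 822 to 1795 in control IgG. The 6 genes were all higher in BF10 than in control IgG (median 1.35, against 0.32 over all genes) with none called. Of 4 B cell markers 2 passed the filter, with none called. The 4 summed to 0.937 to 66.4 TPM in control IgG, so the reference tumors were uneven in them. The sums were 1.82 to 5.24 TPM in BF10, 0.749 to 5.51 in aCSF1R and 1.12 to 2.14 in IL-10-Fc.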

How the data were processed

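RNA from 12 tumors (4 groups of 3) was extracted with TRIzol and made into stranded libraries of polyadenylated RNA, sequenced on an Illumina NextSeq. The submitters' processing notes name STAR 2.7.5a, RSEM 1.3.3 and DESeq2 1.28.0, with mm10 (GRCm38). The authors deposited expression as FPKM (fragments counted per kilobase and scaled to the mapped reads) for 55401 genes with 2 decimals, and 4 tables of DESeq2 comparisons, of which only the authors' deposited mean normalized count per gene, a score, was used; their fold changes and p-values were not. All 12 columns were matched by name, and 0 were left unmatched.

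No count model was applied, as no counts were used. Values were rescaled to a total of 1000000 per library (TPM), and depth was estimated from the FPKM that 1 read is worth in genes with a single transcript, which gives reads assigned to genes and not reads sequenced. Genes with at least 1 TPM in at least 3 libraries (15504 of 34194 above 0) were tested on log2(TPM + 1), a scale that understates changes of low genes such as Cxcr6, with limma 3.58.1 (eBayes with trend, R 4.3.3), 1 mean per group over all 12 libraries and Benjamini-Hochberg adjustment over all genes. A gene was called at an adjusted p below 0.05 and at least 1.5-fold. Ratios within a library, single members with against without interleukin-10 and member pairs were tested by two-sided exact permutation (scipy 1.17.1). The comparisons share control libraries. The 7 contrasts were each treatment against control IgG, BF10 against each component, with against without interleukin-10 and the non-additive one.

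The members, lists and tests were chosen with earlier results of these data known. Named were the 6 members, list genes past the threshold (at most 5 per list), the highest and lowest of each list with interleukin-10, and the 3 genes most alike to each member; Spp1, Cd3d, Cd3e, Cd3g, Gbp5, the sheddases, Ifng and the marker genes in the text were named outside that rule. Some genes that the rule names are not reported here. Pooled correlations over all 12 libraries were computed but are not given, since the library sets form clusters. The fit was tested on simulated data. Promoters are from RefSeq (GRCm38.p6; 4 of 6 members matched), positions from GENCODE (GRCm38).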

Additional observations from a re-analysis of the deposited data

How the results depend on the processing

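With 3 tumors per group, 2 library sets that are unevenly spread over the groups and receptors at a few TPM, small differences of Cxcr3 and Cxcr6 could not be resolved. The alternatives were a pseudocount of 0.1, FPKM without rescaling, median-of-ratios scaling, no filter on low values, the library set as a term, a replicate block and leaving out each library in turn. Of 126 recomputed counts of called members 116 were unchanged and 10 moved, and of 756 recomputed member differences 699 kept direction and side of the threshold, 47 turned direction, 7 lost and 3 gained a call, the last 10 all of Cxcl16. The count of called members went from 0 to 1 with the library set as a term in aCSF1R against control IgG and with against without interleukin-10, and from 1 to 0 in BF10 against aCSF1R with median-of-ratios scaling. Leaving out 1 library gave counts of 0 to 1 in aCSF1R against control IgG and 0 to 1 in BF10 against aCSF1R.

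The labels do not say what a shared replicate number stands for, and the 7 pairs of libraries that share one had correlations of deviations of -0.66 to 0.42, 2 of them over 0.1 (estimated block correlation -0.37), so the numbers were not taken as pairs. With the replicate block 0 members were called in BF10 against aCSF1R (Cxcl16 1.406, adjusted p 0.0775). The block turned BF10 against IL-10-Fc to -0.036 for Cxcl10, -0.084 for Cxcl16 and -0.017 for Cxcr3, and Cxcr6 to -0.111 in BF10 against aCSF1R and -0.338 in the non-additive contrast.

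Other differences that turned direction follow. With FPKM without rescaling they were Cxcl16 (-0.063) and Cxcr6 (-0.036) in IL-10-Fc against control IgG, Cxcl9 in aCSF1R against control IgG (-0.054) and in the non-additive contrast (0.046), and Cxcr3 minus the Cd3 genes with interleukin-10 (0.002). With median-of-ratios scaling they were Cxcl16 against control IgG in BF10 (-0.070) and in IL-10-Fc (-0.288), Cxcr6 in IL-10-Fc against control IgG (-0.232) and with interleukin-10 (-0.048), Cxcl9 in aCSF1R against control IgG (-0.106), in BF10 against IL-10-Fc (0.031) and in the non-additive contrast (0.137), and Cxcr3 in the non-additive contrast (0.075). With the library set as a term they were Cxcr3 in aCSF1R against control IgG (-0.144) and in the non-additive contrast (0.237). The cause was not tested.

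Leaving out 1 library at a time, differences that turned direction ranged, for BF10 against IL-10-Fc, from -0.018 to 0.568 (Cxcl10), -0.426 to 0.229 (Cxcl11), -0.211 to 0.144 (Cxcl9), -0.373 to 0.533 (Cxcr3) and -0.655 to 0.639 (Cxcl9 minus Spp1). Against control IgG they ranged from -0.042 to 0.317 (Cxcl16, IL-10-Fc), -0.283 to 0.462 (Cxcl9, aCSF1R), -0.008 to 0.910 (Cxcr3, aCSF1R), -0.448 to 0.257 (Cxcr6, BF10), -0.141 to 0.563 (Cxcr6, IL-10-Fc) and -0.246 to 0.101 (Cxcl16 minus Cxcr6, IL-10-Fc). Cxcr3 ranged from -0.315 to 0.602 in BF10 against aCSF1R. In the non-additive contrast the ranges were -0.496 to 0.249 (Cxcl9), -0.818 to 0.232 (Cxcr3) and -0.260 to 0.444 (Cxcr6). With against without interleukin-10 they were -0.205 to 0.161 (Cxcr3 minus the Cd3 genes), -0.350 to 0.084 (Cxcr6 minus the Cd3 genes) and -0.216 to 0.273 (Cxcl9 minus Cxcl10). Against control IgG, Cxcl9 ranged from 0.494 to 1.238 in BF10 and from 0.527 to 1.272 in IL-10-Fc, in both cases lowest without control IgG replicate 5. Cxcl9 minus Spp1 with interleukin-10 stayed at 1.476 to 2.016 without any 1 library.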
